A study of Mus musculus with 6 samples.

Results

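The genes described here encode the structural proteins of caveolae and related membrane scaffolds: the caveolins Cav1 and Cav2, the cavins Cavin1, Cavin2 and Cavin3, the ATPase Ehd2, stomatin (Stom) and the flotillins Flot1 and Flot2. They were chosen by symbol, and all 9 of 9 were found among the 12389 genes of the deposited table. The KO against WT fold changes and p-values of these same libraries were known when the list was chosen, so those given below describe the genes and are not independent evidence about them. The RNA is that of cultured smooth muscle cells, which contract the artery's wall, grown as explants of mouse thoracic aorta and collected untreated at passage 6 or below. The 3 KO libraries came from mice with a smooth muscle-specific knockout of LRRC8A, the obligatory subunit of the volume-regulated anion channel, and the 3 WT libraries from wild-type mice. The sources used here give neither the Cre driver nor the age of the mice, and no label says whether a library is 1 animal or a pool. The genotype field reads wild type for every sample, so the groups rest on the titles. The submitters describe the cultures as independent biological replicates.

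Caveolae are small flask-shaped pits of the plasma membrane that are abundant in smooth muscle, endothelium and fat cells. Caveolin oligomers shape the membrane, cavins form a coat around the bulb, EHD2 sits at the neck, and the pit flattens when the membrane is stretched or the cell swells. Stomatin and the flotillins belong to a separate family of hairpin membrane proteins that scaffold cholesterol-rich patches of membrane, and LRRC8A has been reported to associate with caveolin-1 in adipocytes.

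Estimated depth was 31.6 to 47.9 M reads in KO libraries and 31.0 to 45.4 M in WT libraries. Lrrc8a, the targeted gene, had 868, 672 and 506 scaled reads in KO replicates 1 to 3, against 2578, 2194 and 1221 in WT replicates 1 to 3, so the KO libraries lay below the WT libraries. Every level is a scaled read count as deposited, and every fold change is a difference of log2(value + 2), KO over WT, from a limma fit over 12363 genes. limma passed 0 genes at a Benjamini-Hochberg adjusted p under 0.05, or 0.0% of those tested, with 447 at an unadjusted p under 0.05 (3.62%), while limma-voom passed 0 with 368 at an unadjusted p under 0.05. The authors' deposited table holds 65 genes at a false discovery rate (FDR) under 0.05, or 0.525% of its genes. The targeted gene is one of these 65, with Lrrc8a listed at FDR 0.0196. In limma Lrrc8a had a log2 fold change of -1.51 (SE 0.34, unadjusted p of 0.0029), but its adjusted p was 0.999. This limma fit thus did not pass even the targeted gene, so a count of 0 passing does not show that genes were unchanged. Of the smooth muscle markers, Acta2, the smooth muscle actin gene, had 18724 to 59317 scaled reads in KO libraries and 10651 to 130984 in WT libraries, and Tagln, the transgelin gene, had 8327 to 40463 in KO libraries and 2240.4 to 58393 in WT libraries. Myh11, the smooth muscle myosin heavy chain gene, was low, at 20.8 to 96.8 scaled reads in KO libraries and 90.1 to 1656 in WT libraries. In such bulk RNA, fewer cells of a type and less RNA per cell cannot be told apart.

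Promoter windows of 300 bases, from 250 before to 50 after the start site, were taken from RefSeq (GRCm38.p6) for 7 of the 9 genes, and none was listed for Cavin3 and Flot1. For Cav1 and Cavin1 2 windows each were listed, and only the 1 nearest the gene's annotated 5' end was searched. The Cavin1 window stops at 100970867, short of that gene's annotated 5' end at 100970887. Stom is shown as the gene whose groups separate furthest, and Cav1 and Cavin2 as a pair with like profiles and a wide spread between libraries. Each is written 5' to 3' on the gene's own strand, and capitals mark matches, on either strand, to any of the 7 motifs searched.
Stom, chr2:35336960-35337259, minus strand: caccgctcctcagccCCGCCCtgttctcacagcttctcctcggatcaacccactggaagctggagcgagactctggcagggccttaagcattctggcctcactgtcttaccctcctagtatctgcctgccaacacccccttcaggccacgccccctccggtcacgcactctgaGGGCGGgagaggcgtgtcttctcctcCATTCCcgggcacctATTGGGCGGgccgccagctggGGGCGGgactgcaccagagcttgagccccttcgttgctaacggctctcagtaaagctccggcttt
Cav1, chr6:17306085-17306384, plus strand: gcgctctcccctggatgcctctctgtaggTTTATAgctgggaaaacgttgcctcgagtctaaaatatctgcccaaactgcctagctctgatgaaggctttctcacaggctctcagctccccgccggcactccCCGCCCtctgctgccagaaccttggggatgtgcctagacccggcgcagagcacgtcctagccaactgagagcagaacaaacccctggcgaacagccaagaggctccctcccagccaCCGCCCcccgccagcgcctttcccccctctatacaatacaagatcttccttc
Cavin2, chr1:51288876-51289175, plus strand: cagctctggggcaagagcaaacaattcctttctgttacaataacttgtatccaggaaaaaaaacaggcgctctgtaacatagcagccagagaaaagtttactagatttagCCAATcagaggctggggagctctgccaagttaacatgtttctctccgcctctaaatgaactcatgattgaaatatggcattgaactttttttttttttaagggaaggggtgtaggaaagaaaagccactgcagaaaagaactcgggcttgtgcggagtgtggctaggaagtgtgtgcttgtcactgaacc

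The motifs were the GC box GGGCGG, the CCAAT box CCAAT, the TATA box TATAAA, the AP-1 site TGANTCA, the TEAD site GGAATG, the sterol element TCACNCCAC and the CArG box, which binds serum response factor. GGGCGG was in 6 of the 7 windows, all but that of Cavin2, and in 35.6% of the 32817 promoter windows of the same length. Stom held 4 copies, of which 1 overlaps its CCAAT match in the run ATTGGGCGG. CCAAT was in 6 of 7, all but Cav1, and in 37.4% of all windows. TATAAA was in 1 of 7, Cav1, and in 13.6% of all windows, and the Cav1 match starts at position -221 from the start site.

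TGANTCA was in 1 of 7, Cav2, and in 7.81% of all windows, while GGAATG was in 2 of 7, Cavin1 and Stom, and in 14.7%. The CArG box and TCACNCCAC were in 0 of 7, and in 1.63% and 1.24% of all windows. G and C made up 43.3% of the window of Cavin2 and up to 66.7% in the others, against a median of 52.7%, and a GC-rich window holds GGGCGG more readily. A match is a run of letters in the window and no evidence of binding, and the absence of one says nothing about a factor.

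Stom differed most between the groups, with a KO mean at 0.547 of the WT mean and the same direction in all 3 same-numbered pairs. Ehd2 was higher in KO by a smaller amount, without overlap, and the caveolins, the cavins and the flotillins overlapped between the groups. Cav1, the 3 cavins and Ehd2 had higher means in KO than in WT, Cav2 and the flotillins had lower ones, and apart from Stom in the authors' deposited table none of these differences passed a test. Single libraries stood out for several genes, such as KO replicate 3 for Cav2, WT replicate 2 for Cavin2 and WT replicate 3 for the flotillins. For Cav1, KO replicate 3 and WT replicate 2 were both low.

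Caveolin-1, the integral protein without which non-muscle caveolae do not form, is encoded by Cav1 (ENSMUSG00000007655, chromosome 6, 17306335 to 17341452, plus strand). Cav1 had 16623, 18303 and 7200.2 scaled reads in KO replicates 1 to 3, against 10534, 7415 and 15125 in WT replicates 1 to 3. KO replicate 3 was the lowest library of all and WT replicate 3 the highest of its group, so the groups overlapped and the third same-numbered pair went the other way. The means were 14042 ± 5984 in KO and 11025 ± 3879 in WT (SD, n = 3 each), and the log2 difference was 0.66, 1.30 and -1.07 for replicates 1, 2 and 3. The limma log2 fold change was 0.30 (SE 0.43), with an adjusted p of 0.999. With single libraries left out the limma value ran from 0.04, without WT replicate 2, to 0.72, without KO replicate 3, and without replicate 3 of both groups it was 0.98 with an adjusted p of 0.785.

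Cav2 encodes caveolin-2, which needs caveolin-1 to reach the plasma membrane (ENSMUSG00000000058, chromosome 6, 17281185 to 17289115, plus strand), and the gene ends 17219 bases before Cav1 on the same strand. It had 2015, 2583 and 1235 scaled reads in KO replicates 1 to 3, against 2063, 1852 and 2510.1 in WT replicates 1 to 3. Its WT values all lay within the range of the KO values, and KO replicate 3 was again the lowest library. The limma log2 fold change of Cav2 was -0.19 (SE 0.30, adjusted p of 0.999), and it turned to 0.10 without KO replicate 3.

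Among the cavins, Cavin1 encodes the coat protein that is essential for caveolae (ENSMUSG00000004044, chromosome 11, 100956733 to 100970887, minus strand). It had 38902, 36333 and 32137 scaled reads in KO replicates 1 to 3, against 31383, 24226 and 32754 in WT replicates 1 to 3. It varied least of the 3 cavins, and the overlap came from KO replicate 3, which lay just below WT replicate 3. The means were 35791 ± 3415 in KO and 29454 ± 4579 in WT (SD, n = 3 each), with a log2 fold change of 0.29 (SE 0.24, limma adjusted p of 0.999). With single libraries left out it ran from 0.15, without WT replicate 2, to 0.37, without WT replicate 3, and it was 0.45 without replicate 3 of both groups and 0.55 with library quality weights.

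Cavin2, which binds phosphatidylserine and shapes the caveolar membrane (ENSMUSG00000045954, chromosome 1, 51289126 to 51302960, plus strand), spread most among the libraries. It had 30543, 30297 and 12139.7 scaled reads in KO replicates 1 to 3, against 22501, 9629 and 20078 in WT replicates 1 to 3. KO replicates 1 and 2 were the highest libraries, while WT replicate 2 was the lowest and KO replicate 3 the next. The means were 24327 ± 10555 in KO and 17403 ± 6840.3 in WT (SD, n = 3 each), with a log2 fold change of 0.46 (SE 0.48, limma adjusted p of 0.999).

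Cavin3, whose product joins the coat through Cavin1 and is linked to signalling from caveolae (ENSMUSG00000037060, chromosome 7, 105480083 to 105482300, minus strand), had 3110.4, 2555 and 1511 scaled reads in KO replicates 1 to 3, against 1747, 1353 and 2125 in WT replicates 1 to 3. KO replicates 1 and 2 were above every WT library and KO replicate 3 was the second lowest of all. The log2 fold change of Cavin3 was 0.42 (SE 0.32, limma adjusted p of 0.999). With single libraries left out Cavin2 ran from 0.08, without WT replicate 2, to 0.90, without KO replicate 3, and Cavin3 ran from 0.20, without KO replicate 1, to 0.72, without KO replicate 3.

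Ehd2, whose product stabilises caveolae at their neck (ENSMUSG00000074364, chromosome 7, 15946958 to 15967567, minus strand), was higher in each KO library than in any WT library. It had 16706.5, 13574 and 12791 scaled reads in KO replicates 1 to 3, against 10829.9, 10255 and 12062 in WT replicates 1 to 3. The groups did not overlap, although KO replicate 3 and WT replicate 3 were close together. The means were 14357 ± 2072 in KO and 11049 ± 923 in WT (SD, n = 3 each), with a log2 fold change of 0.37 (SE 0.21) and a limma adjusted p of 0.999. In the authors' deposited table the log2 ratio of Ehd2 was 0.38 at an unadjusted p of 0.0766. Ehd2 and Stom made 2 of the 9 genes whose groups did not overlap, beside 8.43% of all tested genes. KO lay above WT without overlap in 3.91% of tested genes, as for Ehd2, and below WT in 4.51%, as for Stom.

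Stom encodes stomatin, an integral membrane protein that binds cholesterol and regulates ion channels (ENSMUSG00000026880, GRCm38 chromosome 2, 35313986 to 35336976, minus strand). It had 2789.6, 3489 and 2561 scaled reads in KO replicates 1 to 3, against 5268, 5630.5 and 5269 in WT replicates 1 to 3. Every KO value was below every WT value, and the WT values were within a narrow band. The group values were 2947 ± 484 in KO and 5389 ± 209 in WT (SD, n = 3 each), a ratio of 0.547. By same-numbered libraries the log2 difference was -0.92, -0.69 and -1.04 for replicates 1, 2 and 3.

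The limma log2 fold change of Stom was -0.88 (SE 0.19), at an unadjusted p of 0.0024. It did not pass, since limma's adjusted p was 0.999. That adjusted p was 0.358 with the replicate number as a block and 0.0887 with library quality weights, the smallest of the settings tried. Stom passed in the authors' deposited table, at a log2 ratio of -0.87 and an FDR of 0.0212. The authors' deposited table gives its fold change as -1.83, with 95% limits of -2.47 and -1.36, where a minus sign means lower in KO. Only 0.218% of tested genes had an unadjusted p as small as or smaller than that of Stom in limma.

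The flotillins form hetero-oligomers on the inner face of the membrane and do not depend on caveolae. Flot1 (ENSMUSG00000059714, chromosome 17, 35823230 to 35832791, plus strand) had 4630.5, 4929 and 3539.6 scaled reads in KO replicates 1 to 3, against 4295, 3506 and 7667 in WT replicates 1 to 3. Flot2 (ENSMUSG00000061981, chromosome 11, 78037931 to 78060434, plus strand) had 4218, 3463 and 3234 in KO replicates 1 to 3, against 3716, 3193 and 6506 in WT replicates 1 to 3. For both genes WT replicate 3 stood far above the other 5 libraries, which lay close together. The log2 fold changes were -0.17 (SE 0.32) for Flot1 and -0.24 (SE 0.30) for Flot2, each with a limma adjusted p of 0.999, and without WT replicate 3 they turned to 0.16 and 0.07.

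**Figure D1:**
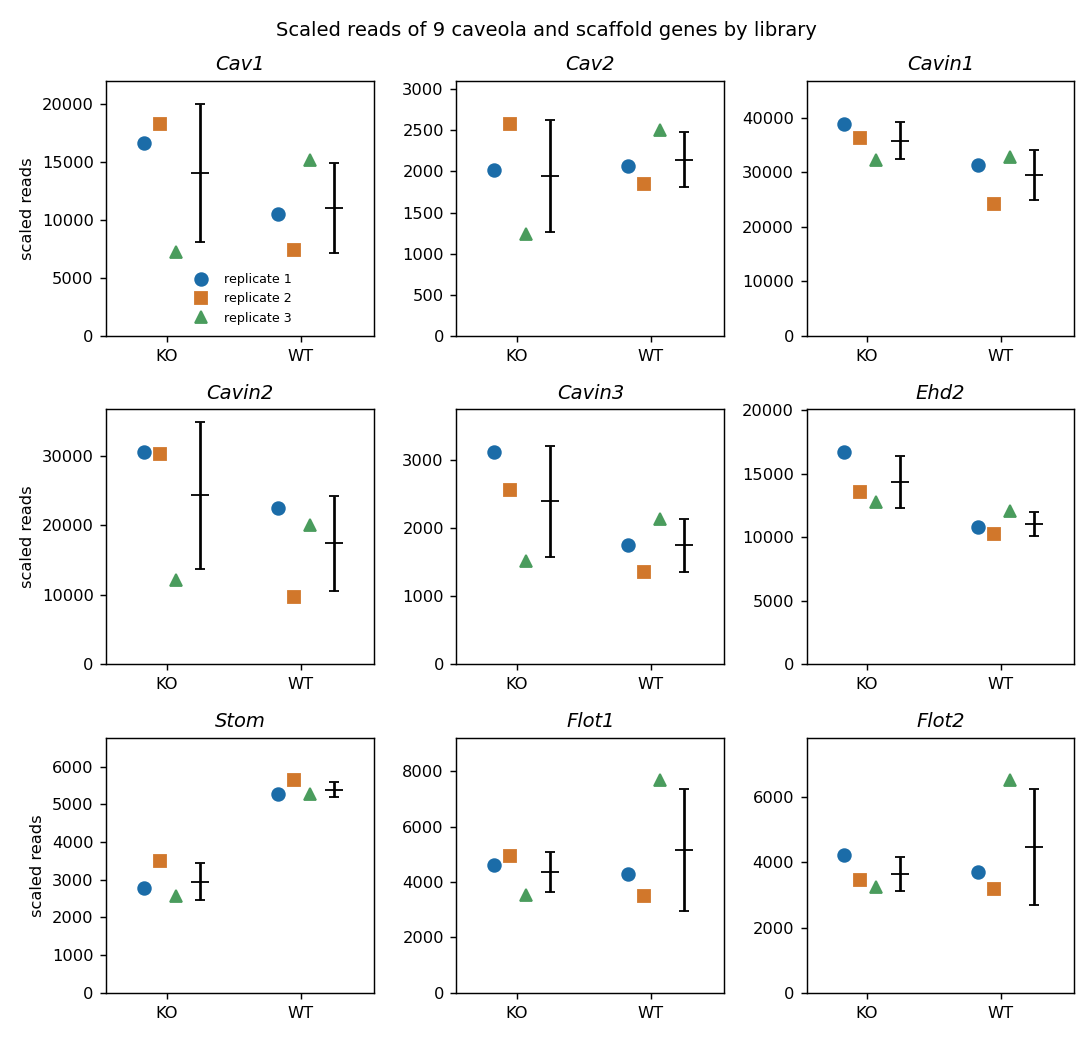
Scaled reads (vertical axis) of each gene in KO and WT libraries, with 1 marker per replicate and the group mean ± SD in black (n = 3 each). Stom was 2561 to 3489 in KO libraries and 5268 to 5630.5 in WT libraries, and the caveolin and cavin genes overlapped between groups.

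Across the 9 genes, limma passed 0 at an adjusted p under 0.05, beside 0.0% of all genes, and 1, Stom, had an unadjusted p under 0.05, beside 3.62% of all genes. With the replicate number as a block limma also passed 0, and 1, again Stom, had an unadjusted p under 0.05, beside 7.42% of all genes. With library quality weights limma passed 0 of the 9 and 0.243% of all genes, while 6 of the 9 had an unadjusted p under 0.05, beside 18.5% of all genes. With both the block and the weights it passed 0 of the 9 and 0.0404% of all genes. limma-voom passed 0, with Stom at an unadjusted p under 0.05. The authors' deposited table held 1 of the 9, Stom, at an FDR under 0.05 and lower in KO, beside 0.412% of its genes lower in KO. For the other 8 genes the log2 ratio in the authors' deposited table ran from -0.30 for Flot2 to 0.48 for Cavin2. The median log2 fold change was 0.29 over the 9 genes and 0.00 over all tested genes, with 5 of the 9 above 0 and 4 below. The scaling of the libraries holds the median over all tested genes near 0. Library factors recomputed as a median of ratios moved it by only -1.3e-06.

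The direction turned on the replicate number for most of these genes. In 6 of the 9, namely Cav1, the 3 cavins and both flotillins, KO was above WT in replicates 1 and 2 and below it in replicate 3, a pattern held by 14.0% of all tested genes. Ehd2 was above WT in all 3 same-numbered pairs, as were 15.7% of tested genes, and Stom was below WT in all 3, as were 15.0%. The median log2 difference of the 9 genes was 0.31, 0.49 and -1.01 in replicates 1, 2 and 3, whereas over all tested genes it was 0.01, 0.00 and 0.01. The scaling holds the all-gene values near 0 here too. Medians with these signs also occurred in lists described below. These were the clathrin coat (0.48, 0.09 and -0.52), annexins and partners (0.37, 0.20 and -0.26) and fibroblast markers (0.49, 0.92 and -2.23). They did not occur in the accessory proteins, stomatin relatives, proteins reported in smooth muscle caveolae or tetraspanins, or in the other marker lists of more than 1 gene. The distance between the highest and lowest of the 3 pair differences had a median of 1.41 on the log2 scale over the 9 genes and of 0.70 over all tested genes. It reached 2.38 for Cavin2 and 2.37 for Cav1, and it was 0.35 for Stom.

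**Figure D2:**
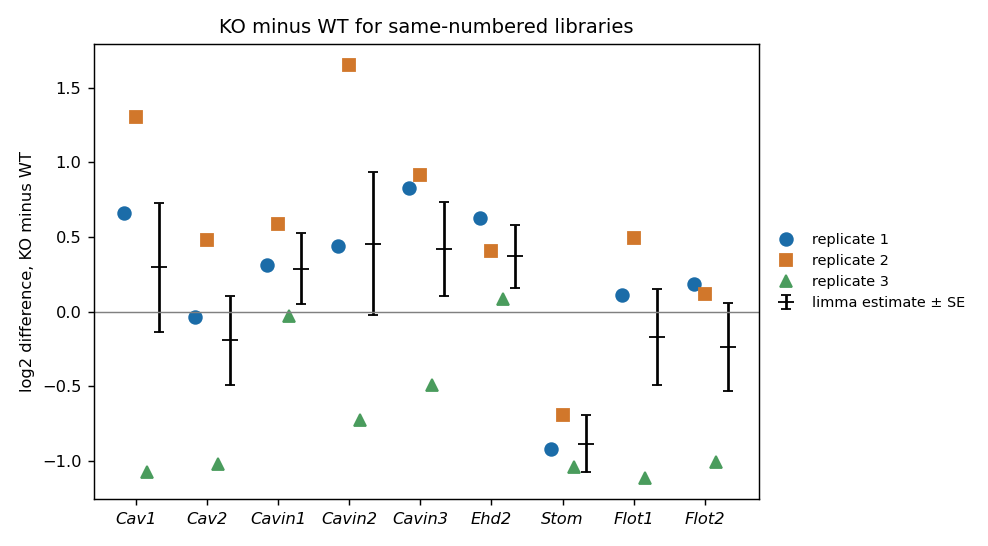
Log2 difference, KO minus WT, between same-numbered libraries for each gene (coloured markers), beside the limma estimate ± SE (black). Stom lies between -1.04 and -0.69 in all 3 pairs, while in replicate 3 Cav1, Cav2, Flot1 and Flot2 lie between -1.11 and -1.01.

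The libraries differ in other ways that cross these values. Of 10 smooth muscle markers 7 had values, and Myocd, Des and Mylk were not analysed here. The summed level of the 7 was 31567, 32575 and 106114 in KO replicates 1 to 3, against 16629, 25353 and 205292 in WT replicates 1 to 3, so replicate 3 was the highest in both groups. Acta2 and Tagln made most of that sum, with log2 fold changes of 0.14 (SE 1.02) and 0.56 (SE 1.23). Of the 7 markers, 5 had a log2 fold change below 0, and the median of the 7 was -0.78. Mitochondrial genes took 6.41%, 4.24% and 2.37% of scaled reads in KO replicates 1 to 3, against 7.13%, 4.95% and 1.82% in WT replicates 1 to 3, so replicate 3 was the lowest in both. The 4 mesothelial or epithelial markers with values (of 7), led by Upk3b and Msln, summed to 5766, 5558 and 1098 in KO replicates 1 to 3, against 9801, 5350.4 and 5561 in WT replicates 1 to 3, with KO replicate 3 the lowest as for Cav2. Of these 4 markers, 3 had a log2 fold change below 0. Krt19 went the other way, at 1.16 (SE 0.84), and was not lowest in KO replicate 3. All 7 fibroblast markers had values, led by Col1a1 and Col3a1, and summed to 220069 to 248138 in KO libraries and 133002 to 161162 in WT libraries. That sum was higher in each KO library than in any WT library, as Ehd2 was, and its largest part was Col1a1, at 119121 to 194742 in KO libraries and 96639 to 117469 in WT libraries. Col1a1 was the 1 of 7 fibroblast markers whose groups did not overlap, beside 8.43% of all tested genes. Of the 7, 4 had a log2 fold change below 0 and the median was -0.19, with Lum at -1.65 (SE 2.61) and Dpt at -1.65 (SE 1.39). By same-numbered libraries the log2 difference of Dcn was 1.04, 1.59 and -3.21 for replicates 1, 2 and 3, and that of Col3a1 was 1.75, 2.72 and -0.79. Pi16 and Lum had these signs too, as had Cav1, the cavins and 14.0% of all tested genes. Col1a1, Pdgfra and Dpt did not. The part of these measures in the caveolar gene levels was not tested.

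Endothelial and fat cells, which are rich in caveolae, were represented by few markers. Of 8 endothelial markers only Kdr had values, at 21.3 to 423 scaled reads in KO libraries and 42.7 to 433 in WT libraries, and the other 7 were not analysed here. Of 7 adipocyte markers, Fabp4 and Pparg had values, summing to 274 to 434 in KO libraries and 142 to 1622 in WT libraries. The 3 of 7 leukocyte markers with values, led by Csf1r and Lyz2, summed to 392 to 1197 in KO libraries and 1233 to 1594 in WT libraries. Every KO sum was below every WT sum, as for Stom, but only 1 of the 3 markers, Lyz2, separated the groups, beside 4.51% of all tested genes with KO below WT. Csf1r overlapped, at 899 in KO replicate 3 against 587 to 858 in WT libraries. S100b, the 1 of 4 Schwann cell markers with values, had 9.25 to 529 in KO libraries and 43.5 to 239 in WT libraries. Their part in the results was not tested.

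The library profiles grouped the genes. Likeness was measured as the root mean square (RMS) difference of log2 deviations from each gene's own mean over the 6 libraries, where 0 is an identical profile. The closest of all pairs were Cavin1 with Ehd2 at 0.11 and Flot1 with Flot2 at 0.13, and Cav1 was closest to Cavin3 at 0.22 and Cavin2 at 0.25. Cav2 was closer to Flot1, at 0.27, than to its neighbour Cav1, at 0.33. Stom lay farthest from Cavin2, at 0.87, and its closest partner was Cav2 at 0.43. Genes that vary little are close to each other by this measure, whatever their pattern.

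**Figure D3:**
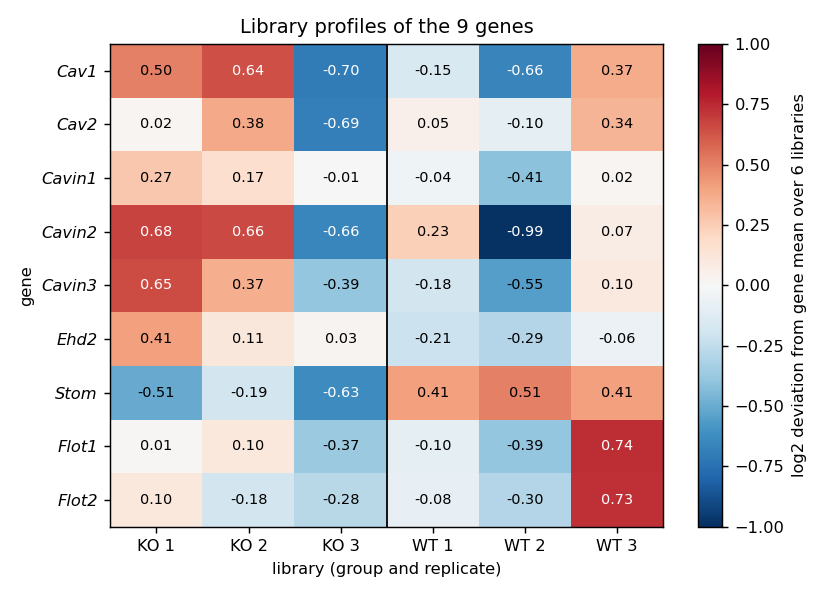
Log2 deviation of each gene from its own mean over the 6 libraries, in colour and digits, with KO libraries on the left of the line and WT libraries on the right. Cav1 ran from -0.70 in KO replicate 3 to 0.64 in KO replicate 2, and Stom was below its mean in every KO library and above it in every WT library.

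Among the 8976 other tested genes with a mean of at least 500 scaled reads, Jag1, which encodes a Notch ligand, had the profile most like Cav1, with an RMS difference of 0.13. Nudt12, a nucleotide hydrolase gene, and Cdc42ep3, a Cdc42 effector gene, followed at 0.23 and 0.24, where the median gene differed from Cav1 by 0.63. Jag1 had 2017, 1794 and 911 scaled reads in KO replicates 1 to 3, against 1341, 896 and 1895 in WT replicates 1 to 3, so it too was low in KO replicate 3 and WT replicate 2. The genes most like Stom were Pvr, which encodes the poliovirus receptor homologue, Sltm and Rasa3, a Ras GTPase-activating protein gene, at 0.13, 0.13 and 0.14, where the median gene differed from Stom by 0.56. In limma Pvr had a log2 fold change of -0.79 (SE 0.22), Sltm one of -0.80 (SE 0.18) and Rasa3 one of -0.67 (SE 0.19). Each had a limma adjusted p of 0.999, and their direction follows from the choice by likeness to Stom.

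Ratios between scaffold genes within a library do not depend on its scaling. The log2 ratio of Cav2 over Cav1 was -2.80 ± 0.25 in KO and -2.31 ± 0.30 in WT (SD, n = 3 each). By same-numbered libraries the difference was -0.69, -0.82 and 0.05 for replicates 1, 2 and 3, and the groups overlapped. Stom over Cav1 was -2.15 ± 0.58 in KO and -0.97 ± 0.56 in WT, and those groups overlapped too, at -1.49 in KO replicate 3 and -1.52 in WT replicate 3. Ehd2 over Cavin1 averaged -1.32 ± 0.10 in KO and -1.41 ± 0.15 in WT, and Flot2 over Flot1 was -0.26 ± 0.22 in KO and -0.19 ± 0.05 in WT (SD, n = 3 each).

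The ratio of Cavin1 over Cav1 had the same mean to within its spread, 1.46 ± 0.62 in KO and 1.47 ± 0.31 in WT, yet it was 0.99 in KO replicate 2 and 2.16 in KO replicate 3. Cavin2 over Cavin1 was -0.67 ± 0.64 in KO and -0.84 ± 0.44 in WT, and Cavin3 over Cavin1 was -3.96 ± 0.40 in KO and -4.09 ± 0.13 in WT (SD, n = 3 each). For none of the 7 ratios did the KO and WT libraries separate, and 3 libraries against 3 allow no p under 0.1 in an exact two-sided permutation test.

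Levels of different genes were compared as scaled reads per kilobase of exon, using the union of annotated exons. Cavin1 was the highest, at 9978 ± 952 per kilobase in KO and 8211 ± 1277 in WT, followed by Cavin2 at 7963 ± 3455 in KO and 5697 ± 2239 in WT, and Cav1 at 4077 ± 1738 in KO and 3201 ± 1126 in WT (SD, n = 3 each). Ehd2 followed at 2805 ± 405 in KO and 2158 ± 180.3 in WT. These 4 genes of the caveolar coat and neck lay at the 94.1th percentile or above among 12385 genes, by mean level per kilobase.

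The next 4 genes lay close together. Flot1 had 1509 ± 253 per kilobase in KO and 1782 ± 764 in WT, and Flot2 had 1328 ± 188 in KO and 1632 ± 650.0 in WT. Cavin3 had 1439 ± 489 in KO and 1048 ± 232 in WT, and Stom had 1042 ± 171 in KO and 1906 ± 73.9 in WT (SD, n = 3 each). In WT libraries Stom had the highest mean of these 4 genes and in KO libraries the lowest, and their ranges over libraries overlapped. Cav2 was the lowest at 583 ± 203 in KO and 642 ± 101 in WT, and its highest library, at 775, was below the lowest of any other of the 9 genes, at 814 for Cavin3. Within each of the 6 libraries Cavin1 was above Cavin2 and Cavin2 above Cav1, although the ranges of Cavin1 and Cavin2, and of Cavin2 and Cav1, overlapped between libraries. Neighbours from Cav1 to Stom also overlapped in range.

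**Figure D4:**
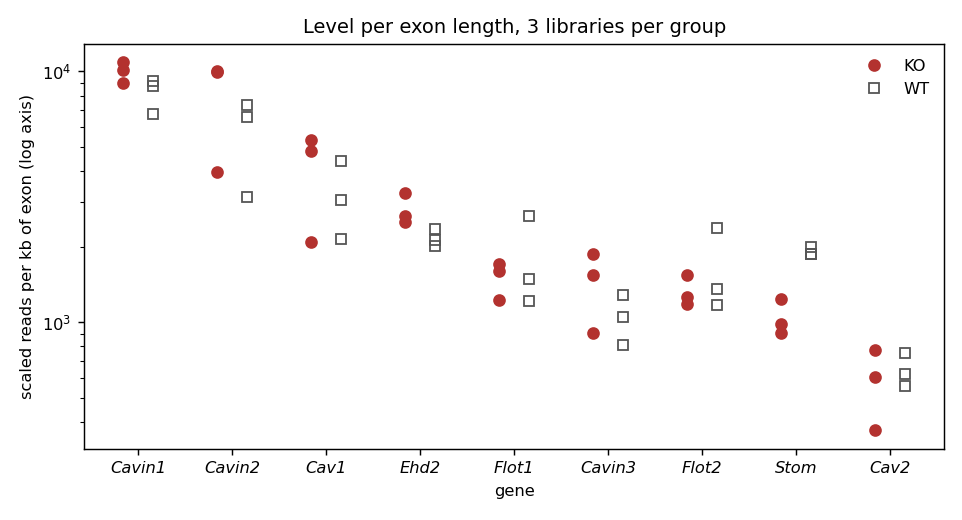
Scaled reads per kilobase of exon (log axis) of each gene, ordered by the KO mean, with filled circles for KO and open squares for WT libraries (3 each). Cavin1 lies between 6754 and 10845 and Cav2 between 370.2 and 775, and the KO circles of Stom all lie below its WT squares.

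Of 13 listed genes for proteins that act with caveolae, 10 were tested, and limma passed 0 in either direction at an adjusted p under 0.05. At an unadjusted p under 0.05 there was 1 of the 10, beside 3.62% of all tested genes. Cav3, Cavin4 and Pacsin1 were not analysed here. The gene at an unadjusted p under 0.05 was Ehd3, a relative of Ehd2 that acts on recycling endosomes, with 393, 239 and 304 scaled reads in KO replicates 1 to 3, against 856, 549.7 and 994 in WT replicates 1 to 3. Its groups did not overlap, with KO below WT as in 4.51% of all tested genes. The log2 fold change of Ehd3 was -1.34 (SE 0.32, limma adjusted p of 0.999). For Ehd3 the authors' deposited table lists an FDR of 0.0628.

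Within the EHD family Ehd2 had 0.37 (SE 0.21), Ehd1 0.15 (SE 0.23), Ehd4 -0.41 (SE 0.23) and Ehd3 -1.34 (SE 0.32) as log2 fold changes. Dnm2, the dynamin that cuts membrane necks, had -0.34 (SE 0.21), and the curved-membrane binders Pacsin2 and Pacsin3 had -0.21 (SE 0.37) and 0.13 (SE 0.25). Ror1, a receptor reported to hold caveolin and cavin together, had -1.11 (SE 0.50), with KO replicate 1 at 1048 against 259 and 365 in the other KO libraries and 895 to 1172 in WT libraries. The actin cross-linker gene Flna and the kinase genes Abl1 and Src had 0.05 (SE 0.37), 0.00 (SE 0.21) and 0.09 (SE 0.25). The list's median was -0.10, beside 0.00 over all tested genes.

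Of 8 listed relatives of stomatin and the prohibitins, 6 were tested, and limma passed 0 with 0 at an unadjusted p under 0.05, beside 3.62% of all tested genes. As log2 fold changes, Stoml1 had -0.27 (SE 0.39) and the mitochondrial Stoml2 had 0.20 (SE 0.31). The mitochondrial prohibitins Phb and Phb2 had -0.10 (SE 0.26) and 0.18 (SE 0.23), and Erlin1 and Erlin2, of the endoplasmic reticulum, 0.21 (SE 0.24) and 0.06 (SE 0.32). The list's median of 0.12 and range of -0.27 to 0.21 lie above the value of Stom, -0.88.

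The remaining lists had medians near that of all genes, and limma passed 0 of their members, with 0 at an unadjusted p under 0.05, beside 3.62% of all tested genes. Proteins reported in smooth muscle caveolae, 11 of 13 tested, had a median of -0.01, with the growth factor receptor gene Egfr at -0.68 (SE 0.35) and the G protein gene Gnaq at 0.21 (SE 0.19). The lowest value there was that of Kcnma1, the large-conductance potassium channel gene, at -1.72 (SE 1.86), from only 6.66 to 27.8 scaled reads in KO libraries and 2.37 to 266 in WT libraries. The clathrin coat, the other main endocytic coat, had a median of -0.01 over 9 genes, and its heavy chain gene Cltc had 26199, 20937 and 26023 scaled reads in KO replicates 1 to 3, against 32450, 31722 and 31606 in WT replicates 1 to 3. The Cltc groups did not overlap, with KO below WT as in 4.51% of all tested genes. The log2 fold change of Cltc was -0.40 (SE 0.22), beside -0.32 (SE 0.28) for the light chain gene Cltb.

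Tetraspanins, another family of membrane scaffolds, had a median of -0.07 over 10 genes, with Tspan2 at -0.62 (SE 0.46) and Tspan3 at -0.31 (SE 0.23). Annexins and partners had a median of 0.03 over 9 genes, with Anxa6 at 0.29 (SE 0.27) and S100a10, the partner of annexin A2, at 0.51 (SE 0.25). Named members of these lists were those with the smallest p, so their sizes follow in part from that choice.

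**Figure D5:**
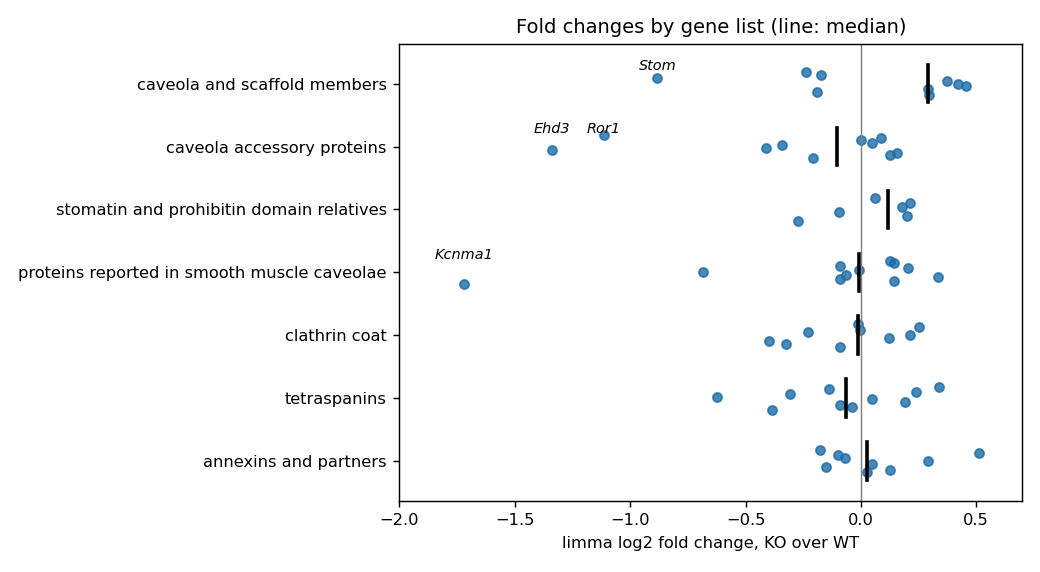
limma log2 fold change, KO over WT (horizontal axis), of every tested gene in each list, with a dot per gene and a line at the median. Stom at -0.88 lies apart from the other 8 of the 9 caveola and scaffold genes, which run from -0.24 to 0.46, and Ehd3 at -1.34 and Ror1 at -1.11 lie apart from the other accessory genes.

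On the opposite strand of Cav1 and Cav2 the annotation holds the antisense gene Gm15581, across Cavin2 9330175M20Rik, and across part of Cavin3 Gm45667. None of these 3 was analysed here, and as the use of strand in counting is not given in the sources used here, reads from them cannot be told apart from those of the genes they cross.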

How the data were processed

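RNA of 6 cultures, 3 KO and 3 WT, was selected by poly(A), made into stranded libraries and read from both ends, per the labels' protocols. The tools STAR, Partek and DESeq2, with no version, and the mouse builds GRCm39 (mm39) are listed, per the submitters' processing notes. The deposited gene coordinates are those of GRCm38: 12341 of 12385 genes start where GENCODE M21 puts them. The deposited per-library values, although under a raw count name, are a scaled signal of estimated reads divided by a factor for each library. The value of 1 read was 0.712 to 1.16 in KO and 0.791 to 1.19 in WT libraries, found from the low values, of which 82.5% to 92.4% lay within 0.05 reads of a whole number, too few to recover reads. The authors' deposited comparison table gives p-values, a log2 ratio, a linear ratio and a signed fold change (a score, negative where KO is lower), KO against WT per the file headers.

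limma 3.58.1 (R 4.3.3, statmod 1.5.0) was fitted on log2(value + 2) with genotype alone and trended, robust variances, for genes with at least 10 in at least 3 libraries (26 left out), with two-sided p-values and Benjamini-Hochberg adjustment over all 12363 genes. The fit was tested on simulated data whose noise was independent between libraries, without the shared deviations of same-numbered libraries described below. How many true differences it recovers in the present data is therefore not known. Per-kilobase levels divide by the union of GENCODE M21 exons. The lowest estimated count of any of the 9 genes was 1159 reads, a counting error of 2.94%, so precision is set by the spread between cultures (median residual SD 0.36, log2). The p-values measure the spread between these libraries. Same-numbered libraries deviated together, with correlations across genes of 0.43, 0.15 and 0.39, a pairing seen in the data and given by no label. The reported fits are unpaired, and a replicate block was an alternative.

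The 9 genes, the lists and the tests were chosen with earlier results of these data known. All 9 genes, all tested accessory genes and stomatin relatives, the 2 members with the smallest p of the other lists, the 2 highest markers and the 3 genes with profiles nearest to Cav1 and to Stom were named. Ehd3, Cltc, Ror1 and Kcnma1 were singled out for per-library values after their values were seen. Alternatives were other scalings, filters, pseudocounts, the other deposited table (12365 shared genes), limma-voom, other variance priors, a replicate block, weights for library quality and the removal of single libraries. Leaving out replicate 3 of both groups was added after the data were seen.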

Additional observations from a re-analysis of the deposited data

How the results depend on the processing

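limma passed 0 of the 9 genes under every alternative tried, and Cav1, the 3 cavins, Ehd2 and Stom kept their direction in all of them. The count over all genes was 30 with library quality weights, 5 with the replicate block with library quality weights, and 0 to 1 with libraries left out, the 1 being without KO replicate 1. The weights, whose estimation stopped before it converged, ran from 0.361 for KO replicate 3 to 7.99 for WT replicate 2, and with them 6 of the 9 genes (18.5% of all genes) had an unadjusted p under 0.05, against 1 of the 9 (3.62% of all genes) without. With those weights the log2 fold changes of Cav2, Flot1 and Flot2 turned to 0.23, 0.35 and 0.13, and with the block and the weights those of Cav2 and Flot1 turned to 0.14 and 0.17. Those of Cav1, Cavin2 and Cavin3 were up to 1.04, 1.40 and 0.87 over these settings. With libraries left out, Cav2 ran from -0.43 to 0.22, Flot1 from -0.41 to 0.30 and Flot2 from -0.44 to 0.15, and Stom from -1.01 to -0.79. The log ratios of Cavin1 over Cav1 ran from -0.53 to 0.23, Cavin2 over Cavin1 from -0.079 to 0.60, Cavin3 over Cavin1 from -0.029 to 0.43 and Flot2 over Flot1 from -0.15 to 0.061. The cause of these turns was not tested. The replicate block alone changed no call: 0 genes passed with it, with 917 at an unadjusted p under 0.05, and Stom had an adjusted p of 0.358. No scaling moved the median of all genes by over 0.1 on the log2 scale. Counting error at this depth was small beside the spread between libraries for the 9 genes.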
